A study of Mus musculus with 14 samples.

Results

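H3K4me2 peaks of mouse embryonic stem cells grown with the MLL1 inhibitor MM-401 were set directly against those of cells in which the gene for MLL1 had been targeted for deletion with 4-hydroxytamoxifen (4-OHT), leaving out the untreated cells. The comparison uses 2 of the 14 libraries of the study, and 2 of the 10 with a peak list. All 60348 peaks of the MM-401 list and all 98906 peaks of the 4-OHT list on the 19 autosomes, X and Y were members, and a peak was counted as shared when a peak of the other list overlapped it by at least 1 bp. Both cultures were C57BL/6J cells derived from blastocysts, with the genotype Mll1fl/fl; Cre-ER TM, so the inhibited cells also carried the floxed alleles and the inducible recombinase. They were kept without feeders on Matrigel in KO DMEM with LIF, 5% serum and 15% KSR. MM-401 was given at 100 µM and 4-OHT at 5 µM, each for 9 days over 3 passages. With 1 library for each treatment nothing could be tested between them, and the intervals given are 95% intervals for counting error only. The labels name no culture given 4-OHT without the floxed alleles, do not say which promoter drives the recombinase, and do not give the share of cells in which the gene was cut.

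MLL1, encoded by Kmt2a, is a histone methyltransferase that works in a complex with WDR5, RBBP5, ASH2L and DPY30 and adds methyl groups to lysine 4 of histone H3. MM-401 blocks the contact of MLL1 with WDR5 on which the activity of that complex depends, whereas deletion removes the protein with all its functions. H3K4me2, the dimethylated form of the lysine, lies around the starts of active and poised genes and on enhancers, where H3K4me1 is also found, and H3K4me3 is concentrated at gene starts. Other enzymes (KMT2B, KMT2C, KMT2D, SETD1A and SETD1B) place the same marks.

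The promoters that the results below turn on are shown first. They are the 250 bases before the annotated start on mm10 (RefSeq, GRCm38.p6), written 5′ to 3′ on the strand of the gene, with each CG in capitals, because the density of CG separated the starts marked in both lists from those marked after 4-OHT alone. Hoxd9 and Nes were marked in both lists and carried more tags after MM-401.
Hoxd9 (chr2:74697513-74697762, plus strand): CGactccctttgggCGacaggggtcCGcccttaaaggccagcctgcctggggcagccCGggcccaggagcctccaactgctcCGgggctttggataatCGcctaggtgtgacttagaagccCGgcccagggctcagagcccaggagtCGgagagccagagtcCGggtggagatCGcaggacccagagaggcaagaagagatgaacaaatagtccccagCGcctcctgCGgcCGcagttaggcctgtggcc
Nes (chr3:87970843-87971092, plus strand): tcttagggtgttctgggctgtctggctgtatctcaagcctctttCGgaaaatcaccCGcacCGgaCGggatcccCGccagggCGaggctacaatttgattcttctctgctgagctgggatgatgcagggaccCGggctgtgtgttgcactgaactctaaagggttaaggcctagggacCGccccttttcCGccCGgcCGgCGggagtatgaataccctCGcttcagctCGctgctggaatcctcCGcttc
The starts of Jarid2 and Coil had an H3K4me2 peak within 1 kb after MM-401 and none after 4-OHT.
Jarid2 (chr13:44730524-44730773, plus strand): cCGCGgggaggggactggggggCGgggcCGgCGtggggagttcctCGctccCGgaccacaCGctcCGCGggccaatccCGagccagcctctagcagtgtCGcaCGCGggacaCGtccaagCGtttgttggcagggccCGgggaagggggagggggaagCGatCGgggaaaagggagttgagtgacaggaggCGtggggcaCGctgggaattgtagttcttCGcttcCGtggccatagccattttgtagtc
Coil (chr11:88973685-88973934, plus strand): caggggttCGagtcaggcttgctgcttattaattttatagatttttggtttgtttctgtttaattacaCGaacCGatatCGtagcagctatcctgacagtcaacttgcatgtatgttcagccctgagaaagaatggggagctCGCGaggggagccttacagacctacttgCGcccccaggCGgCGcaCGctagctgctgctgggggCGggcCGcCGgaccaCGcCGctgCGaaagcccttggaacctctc
The starts of Oas1a and Clrn1 had one after 4-OHT and none after MM-401.
Oas1a (chr5:120907526-120907775, minus strand): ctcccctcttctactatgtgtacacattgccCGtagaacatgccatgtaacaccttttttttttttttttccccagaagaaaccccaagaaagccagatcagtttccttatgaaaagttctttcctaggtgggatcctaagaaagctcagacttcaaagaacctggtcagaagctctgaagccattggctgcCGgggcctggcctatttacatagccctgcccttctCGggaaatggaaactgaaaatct
Clrn1 (chr3:58885213-58885462, minus strand): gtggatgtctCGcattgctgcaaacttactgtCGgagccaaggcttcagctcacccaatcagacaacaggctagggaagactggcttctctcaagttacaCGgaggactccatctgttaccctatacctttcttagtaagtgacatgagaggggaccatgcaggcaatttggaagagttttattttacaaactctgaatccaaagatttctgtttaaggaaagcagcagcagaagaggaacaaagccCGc
These stretches hold 13 CG in Hoxd9, 15 in Nes, 23 in Jarid2, 16 in Coil, 3 in Oas1a and 4 in Clrn1.

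The MM-401 library held 19.8 M tags (M for 1000000) after removal of duplicates and the 4-OHT library 48.6 M, so the inhibited cells were sequenced to 40.8% of the depth of the deleted cells. Peaks took up 72.4% and 77.8% of these tags and covered 151.7 Mb and 219.7 Mb. The estimated fragment length was 238 bp after MM-401 and 179 bp after 4-OHT, the tags were 60 and 51 bp long, and the headers place the 2 libraries in different processing folders with different inputs. Depth, fragment length, folder and treatment therefore cannot be told apart. Of 10 marker genes of embryonic stem cells, all had H3K4me2 at a gene end after 4-OHT and 9 after MM-401, Esrrb being the exception discussed with the pluripotency genes. Peaks were also found at 7 of 14 fibroblast markers in each list, at 9 and 10 of 12 primitive endoderm markers and at 7 of 8 trophectoderm markers in each. Over all 21887 protein-coding genes, 15493 had a peak at a gene end after MM-401 and 16157 after 4-OHT. The marker counts therefore do not tell which cells were present. Col3a1, Dcn, Acta2, Gata4, Dab2 and Elf5 had no peak within 1 kb of their outermost annotated ends in either list. A start inside the annotated gene did not count.

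Kmt2a, the targeted gene, carried H3K4me2 at its start in both lists. The peak there held 56.7 tags per M filtered tags after MM-401 (95% interval 53.4 to 60.1) over 5618 bp and 51.2 (49.2 to 53.2) over 8644 bp after 4-OHT. The tag level was thus close in the 2 lists while the peak reached further into the gene after 4-OHT, to 6.15 kb past the start against 3.04 kb. Over the whole gene 2 peaks were found after MM-401 and 10 after 4-OHT. A peak that lies 11.7 to 16.1 kb inside the gene had 9.22 tags per M after 4-OHT and its MM-401 counterpart 6.01, and the 8 further 4-OHT peaks held between 1.34 and 2.14. The sources used here do not state which exons are floxed, so H3K4me2 at the start does not check the deletion.

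Nearly every H3K4me2 peak of the inhibited cells was also present in the deleted cells. Of the 60348 MM-401 peaks, 98.74% (95% interval 98.7 to 98.8) overlapped a 4-OHT peak and 759 did not. At gene ends, meaning within 1 kb of either end of a protein-coding gene, 99.78% of 16131 MM-401 peaks were shared and 35 were not, and away from gene ends 98.36% of 44217 were shared and 724 were not. Read from the other side, 58.77% (58.5 to 59.1) of the 98906 4-OHT peaks overlapped an MM-401 peak and 40779 did not. The 4-OHT peaks split by place: 87.12% of the 18569 at gene ends were shared, against 52.22% of the 80337 away from them. Within the latter, sharing was lower in gene bodies (48.56% of 42720) than between genes (56.37% of 37617). The smaller list was thus contained almost whole in the larger.

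The 4-OHT peaks without an MM-401 counterpart were weak and narrow. Their median was 1.44 tags per M and 1103 bp, against 6.15 tags per M and 2102 bp for the shared 4-OHT peaks, and together they held 9.36% of the tags of the list. The share found in both lists rose steeply with the level of the peak. Within a class of level it differed less by place than over the whole list. Among 4-OHT peaks with under 1 tag per M, 11.01% at gene ends and 10.8% away were shared. From 2 to 4 tags per M the shares were 57.7% and 57.5%, and from 4 to 8 they were 92.5% and 89.0%. From 8 to 16 they were 99.63% and 97.86%, and from 16 up 100% (9899 of 9899) and 99.57% (3732 of 3748). The shared 4-OHT peaks also differed in level by place, with medians of 19.7 tags per M at gene ends and 4.53 away. The part of level in the gap between places over the whole list was not tested.

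**Figure D1:**
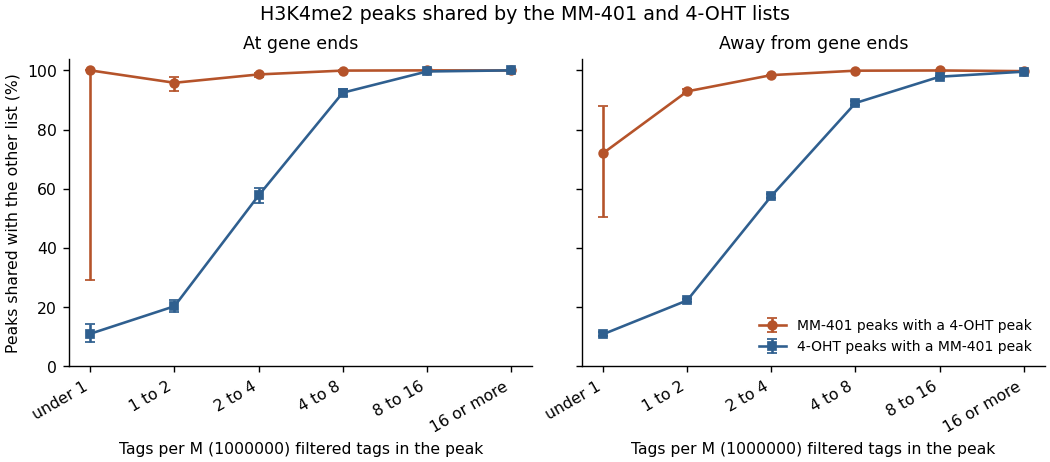
Percent of H3K4me2 peaks that overlap a peak of the other list (vertical axis) by class of tags per M filtered tags in the peak (horizontal axis), at gene ends (left) and away from them (right). Red circles are MM-401 peaks, blue squares are 4-OHT peaks, and bars are exact binomial 95% intervals. The 4-OHT curve climbs from about 11.01% to near 100% in both panels, while MM-401 peaks of 1 tag per M or more stay at or above 92.9%.

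Cutting the 4-OHT list by score to the length of the MM-401 list kept 60348 peaks with a score of at least 231.4. On that footing 88.75% of MM-401 peaks and 85.26% of 4-OHT peaks were shared. Lists of equal length must give close shares when most shared peaks have a single partner in the other list. The loss of the strong asymmetry of the whole lists thus follows from the cut itself, and nothing is concluded from it. Gene ends kept the higher agreement, with 97.86% and 95.81% shared, against 85.43% and 81.28% away from them. In gene bodies 88.58% of MM-401 peaks and 77.60% of 4-OHT peaks were shared, and between genes the order turned, with 82.22% and 85.52%.

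H3K4me1 covered most of the 4-OHT-specific peaks. In the 4-OHT cells 82.84% of the 40779 overlapped an H3K4me1 peak and 15.53% an H3K4me3 peak. In the MM-401 cells 46.78% overlapped H3K4me1 and 2.26% H3K4me3. These lists too differ in depth. The H3K4me1 library held 61.76 M filtered tags after 4-OHT and 22.22 M after MM-401, and the H3K4me3 library 26.41 M and 12.93 M. The part of depth in the overlaps was not tested. Of the shared 4-OHT peaks, 92.98% and 84.68% overlapped H3K4me1 of the 4-OHT and MM-401 cells, and 75.75% and 51.64% overlapped H3K4me3. Neither mark was found after MM-401 at 51.0% of the 4-OHT-specific peaks, and at 10.32% neither was found after either treatment. Mll1 peaks of untreated cells, few in number, lay on 0.564% of the specific and 4.12% of the shared 4-OHT peaks. Of the 4-OHT-specific peaks, 40.85% lay within 5 kb of an MM-401 H3K4me2 peak.

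The 4-OHT-specific peaks of highest score away from gene ends all lay in gene bodies. They were in Mpv17l, a protein of peroxisomes and mitochondria (14.9 tags per M, 95% interval 13.9 to 16.1, over 5636 bp), Ppp2r2a, a regulatory subunit of protein phosphatase 2A (18.3, 17.2 to 19.6, over 8826 bp), and Arglu1, a cofactor in transcription and splicing (12.5, 11.5 to 13.5, over 4738 bp). Usp24, a ubiquitin-specific protease, had 17.0 tags per M over 8832 bp, and Ube3c, a ubiquitin ligase, 14.7 over 7550 bp. Over all gene bodies 51.44% of 4-OHT peaks were specific. The genes with the most of them, chosen after their counts were seen, were long ones. Smyd3, a lysine methyltransferase gene of 566.1 kb, held 45 4-OHT peaks, 33 of them specific, and 12 MM-401 peaks. Camta1 held 55, 32 of them specific, and 24 MM-401 peaks, and Zfhx3 held 72, 30 of them specific, and 41. Rere and Wwox held 29 specific peaks each, of 49 and 54. The share in Zfhx3 was thus under that over all gene bodies and the share in Wwox close to it.

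Jarid2, which encodes a subunit of Polycomb repressive complex 2, had, by score, the highest MM-401 peak that the 4-OHT list lacked. The gene lies at chr13:44730774-44921643. After MM-401 a peak of 37934 bp (chr13:44727608-44765541) spanned its start with 4301 tags, 217.1 tags per M (95% interval 210.7 to 223.7), one of the widest of the list. The 4-OHT list was empty from chr13:44725946-44817336, a stretch of 91.4 kb. In the same stretch MM-401 H3K4me2 covered 83.6 kb in 8 peaks.

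The other marks differed over that stretch as well. H3K4me3 of the 4-OHT cells covered 83.8 kb, with 1 peak of 51204 bp and 425.5 tags per M at the start of the gene, against 19.7 kb after MM-401. H3K4me1 covered 4.20 kb after 4-OHT and 86.6 kb after MM-401. Empty stretches of the 4-OHT H3K4me1 list were not particular to Jarid2. Others ran from chr7:132986297-133124308 at Ctbp2, where 4-OHT H3K4me2 had its widest peak, and from chr14:21499602-21596769 at Kat6b. MM-401 H3K4me1 had peaks of up to 45959 and 43743 bp in them. At Jarid2 the 4-OHT H3K4me2 list resumed with a peak of 47.4 kb. Its score, 550.8, is under the 4-OHT median of 3100 for peaks of 20 kb or wider. A 4-OHT library with H3K4me3 at the start and no H3K4me2 peak in a 91.4 kb stretch was rare. Among 8030 4-OHT H3K4me3 peaks of at least 3 kb, 14 had no H3K4me2 peak of the same cells. Of these 5 lay in Jarid2 and 4 in Kat6b, and 12 had H3K4me2 after MM-401. Among 7116 such H3K4me3 peaks after MM-401, 2 had no H3K4me2 peak, at Sfi1 and at Brox and Aida, and the 4-OHT list lacked H3K4me2 at those as well. The part of peak calling in these empty stretches was not tested.

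**Figure D2:**
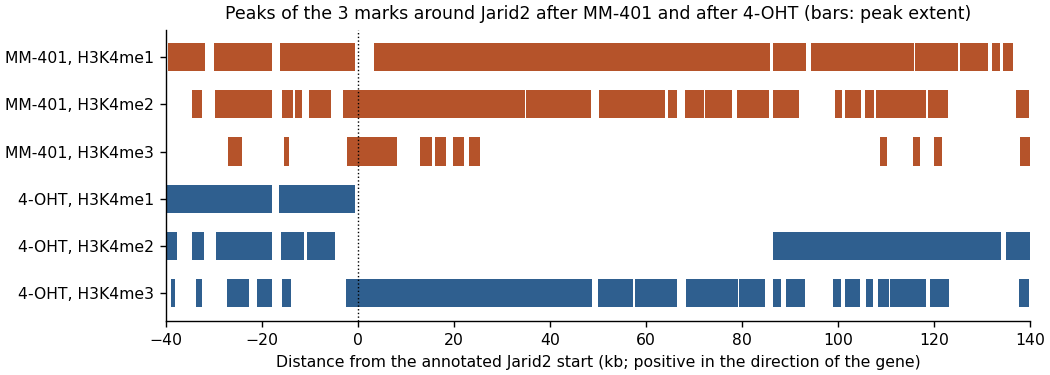
Extent of H3K4me1, H3K4me2 and H3K4me3 peaks around Jarid2, by distance in kb from the annotated start, after MM-401 (red) and after 4-OHT (blue). H3K4me2 after 4-OHT is missing across 91.4 kb that hold H3K4me3 of the same cells and 83.6 kb of H3K4me2 after MM-401.

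Other MM-401-specific peaks of high score lay in a few loci. Kat6b, a histone acetyltransferase gene, held specific peaks of 16.9 tags per M over 4386 bp and 14.5 over 6181 bp, in a stretch of 50.1 kb without a 4-OHT peak that starts where a 4-OHT peak of 72.2 kb ends. Coil, the gene of the Cajal body protein coilin, had 31.0 tags per M (28.6 to 33.6) over 6236 bp at its start, and its neighbour Elobl 66.1 (62.6 to 69.8) over 4780 bp. Both lie in 1 stretch of 20.8 kb without 4-OHT H3K4me2, in which 4-OHT H3K4me3 had 55.3 and 46.3 tags per M. The densest MM-401-specific peak (chr17:39842352-39849367) lay between protein-coding genes, 101153 bp from Esp38, with 8592 tags in 7016 bp. Genes of other kinds were not looked at. H3K4me3 of the 4-OHT cells also had a dense peak there, with 8066 tags in 6416 bp. At this MM-401 H3K4me2 peak 61.2% of the positions on both strands carried a tag, against 5.67% in the Jarid2 peak. Its count is thus nearer to the limit that removal of duplicates sets. A further one on the Y chromosome (chrY:90797196-90809796), named after its values were seen, had 109.3 tags per M over 12601 bp and a score of 337.9, and lay 52113 bp from Gm52481. Over all 759 specific peaks the median was 1.82 tags per M, and 80 had a score of 100 or more. H3K4me1 peaks overlapped 80.76% of the 759 after MM-401 and 79.97% after 4-OHT.

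Where both lists had a peak, levels differed little. The peaks formed 56705 shared regions, 16020 at gene ends and 40685 away, and 93.94% of them were made of 1 peak from each list. At gene ends the median region held 22.9 tags per M after MM-401 and 20.01 after 4-OHT, and the median log2 ratio of MM-401 over 4-OHT was 0.16 (quartiles -0.02 and 0.29). Away from gene ends the levels were 4.09 and 4.63, with a median log2 ratio of -0.04 (-0.38 and 0.28). Gene bodies stood at -0.11 and regions between genes at 0.03. A 2-fold difference was uncommon. At gene ends 36 regions (0.225%) had at least 2-fold more tags per M after MM-401 and 176 (1.1%) after 4-OHT. Away from them the counts were 821 (2.02%) and 1833 (4.51%). Scaling by tags in peaks in place of all filtered tags adds 0.10 to every log2 ratio, so the median away from gene ends is 0.07 on that scale and changes sign, while the difference between gene ends and other places does not depend on the scale.

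The regions at gene ends were slightly narrower and denser in the inhibited cells. Their median summed width was 3159 bp after MM-401 and 3376 bp after 4-OHT (median log2 ratio -0.07), and 33.34% of regions were wider after MM-401. Their density was 6.71 and 5.51 tags per M per kb (median log2 ratio 0.24), higher after MM-401 in 84.89% of regions. Away from gene ends the median log2 ratio was -0.06 for width and 0.05 for density. The difference in tags at gene ends rose with the density of the region, from a median log2 ratio of -0.14 in the sparsest of 5 equal classes to 0.25 in the densest. In that densest class 9.11% of the positions of a region carried a tag after MM-401 and 17.98% after 4-OHT, in lists from which duplicate tags had been removed. The part of this filling of positions in the ratio was not tested. Away from gene ends the ratio did not rise in order over such classes. It was 0.099 in the sparsest, -0.17 in the next and 0.105 in the densest. The classes were made from the densities of both lists, which also enter the ratio.

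**Figure D3:**
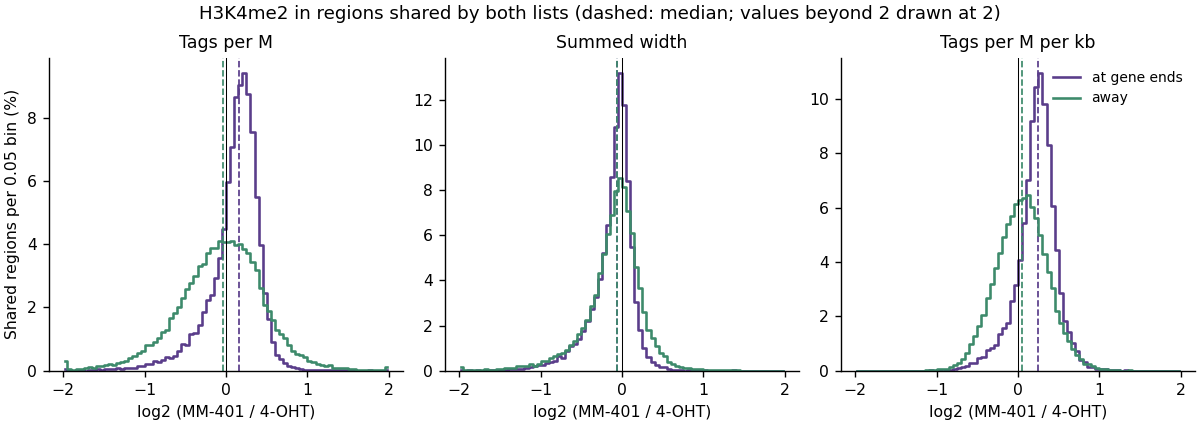
Distribution of log2 ratios of MM-401 over 4-OHT in shared regions at gene ends (purple) and away from them (green), for tags per M, summed width and tags per M per kb. The vertical axis is the percent of regions per bin and dashed lines are medians. The purple curve is shifted to the right for tags (median 0.16) and density (0.24), and both width curves have medians just under 0 (-0.07 and -0.06).

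Of 20037 shared regions in gene bodies, 1342 (6.698%) were at least 2-fold higher after 4-OHT and 308 (1.537%) after MM-401. Of 20648 between genes, 491 (2.378%) were at least 2-fold higher after 4-OHT and 513 (2.485%) after MM-401. The 5 lowest ratios were all in gene bodies, of Ppm1b, a protein phosphatase (2.37 tags per M after MM-401 and 26.0 after 4-OHT), Kat6b (2.42 and 25.01), Manba, a lysosomal mannosidase (2.67 and 24.2), Ankrd17 (2.57 and 20.5) and Orc1, a subunit of the origin recognition complex (2.42 and 19.1). Their log2 ratios ran from -3.45 to -2.98. In each of them a 4-OHT peak of 9310 to 13667 bp met an MM-401 peak of 1353 to 1759 bp, so that the ratio per kb was far smaller, between -0.57 and -0.03. The 5 highest ratios were in regions near Cdh18, a cadherin gene (4.80 tags per M after MM-401 and 0.782 after 4-OHT), near Car8 (3.69 and 0.638), in Spata13 (5.70 and 1.05), in Tom1l2 (6.46 and 1.24) and near Grin2a, a glutamate receptor gene (5.20 and 1.01). Their log2 ratios were 2.37 to 2.62, from 31 to 60 tags each in the 4-OHT list.

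Very wide peaks were more numerous after 4-OHT. Peaks of at least 20 kb numbered 77 after MM-401 and 251 after 4-OHT, and 171 and 523 after peaks within 1 kb of each other had been joined in each list. Of 262 shared regions that reached 20 kb in a list, all did so after 4-OHT and 147 after MM-401. This choice of regions in itself favours a greater width after 4-OHT, and summed width leaves out the gaps between peaks. Among the 262 regions 256 (97.71%) were wider after 4-OHT. Their median log2 ratio was -0.25 for width, -0.20 for tags and 0.08 for density. The widest, around Ctbp2, the gene of a transcriptional corepressor, was 1 peak of 123.2 kb after 4-OHT and 14 MM-401 peaks of 86.4 kb in all, reading 530.8 and 392.5 tags per M. In Rbpj, the DNA-binding partner of Notch, the widths were 77.5 and 73.0 kb. Tet1, which oxidises methylated cytosine, had 77.3 kb in 1 peak after 4-OHT and 73.4 kb in 3 after MM-401, with 417.7 and 373.6 tags per M. Trim71, a stem cell ubiquitin ligase, was close in level, with 453.9 tags per M in a 66.3 kb peak after 4-OHT and 463.1 in peaks of 58.2 kb after MM-401.

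Over shared regions of any width, in 2077 regions 1 4-OHT peak spanned 2 or more MM-401 peaks, and in 1064 regions 1 MM-401 peak spanned 2 or more 4-OHT peaks. Score did not follow width at the top of the 4-OHT list: 48.15% of its 27 peaks of 40 kb or more were at the score cap of 3100, against 91.95% of the 1528 of 10 kb or more, and the Ctbp2 peak scored 226.7. The part of depth in these widths was not tested.

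**Figure D4:**
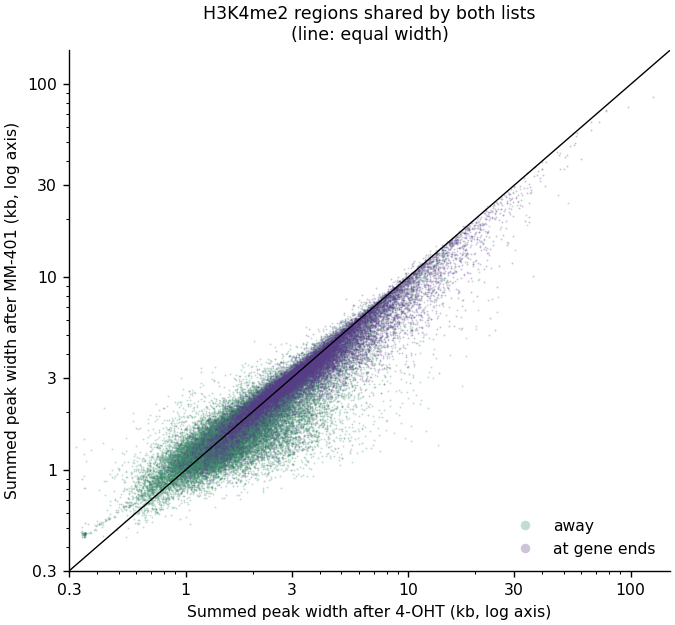
Summed peak width in kb of each shared H3K4me2 region after 4-OHT (horizontal, log axis) and after MM-401 (vertical, log axis), at gene ends (purple) and away (green). The line marks equal width. Regions of 20 kb or more in a list lie under the line in 256 of 262 cases. All 262 reached 20 kb after 4-OHT and 147 after MM-401, so their choice favours the 4-OHT width.

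Counted by gene, 15455 of 21887 protein-coding genes had H3K4me2 at a gene end in both lists, 702 after 4-OHT only, 38 after MM-401 only and 5692 in neither. For 639 of the 702 and for 14 of the 38 no peak of the other list overlapped the peak at the gene end, and for the rest one did but lay more than 1 kb from the gene end. The 702 are 4.35% (4.04 to 4.67) of the genes marked after 4-OHT, and the 38 are 0.245% (0.174 to 0.337) of those marked after MM-401. The 4-OHT-only genes had low levels, with a median of 1.67 tags per M against 26.2 for genes marked in both lists. Of 544 4-OHT-only genes with an annotated start in the promoter table, 393 (72.24%) had the peak there, against 95.69% of the genes marked in both. Cutting the 4-OHT list to equal length left 230 genes marked after 4-OHT only and 172 after MM-401 only.

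The 4-OHT-only genes of highest score were Tpm3, a tropomyosin gene (7.43 tags per M, 6.68 to 8.24), Oas1a, an interferon-induced oligoadenylate synthetase (6.32, 5.63 to 7.07), Pih1d1 (5.85) and Nrn1l (5.66). Mybpc1, a myosin-binding protein of muscle, had 4.28, Clrn1, a sensory cell gene, 4.36, Nme8 4.18, Gm29733 3.60, and Nipbl, the cohesin loader, 3.31. All of these lay under 8 tags per M, the range in which 4-OHT peaks without a counterpart were found throughout the list. The peaks of Tpm3, Oas1a, Pih1d1, Nrn1l, Clrn1, Nme8 and Gm29733 lay at an annotated start. That of Mybpc1 did not, and for Nipbl no start was listed. The 38 MM-401-only genes had a median of 5.68 tags per M. Of the 14 whose peak no 4-OHT peak overlapped, those named after Jarid2, Coil and Elobl ran from Clec4a1, a lectin of immune cells, with 5.45 tags per M, to Spin2d with 1.16.

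Starts marked in both lists had more CG than starts marked in 1 list only. Among 14789 annotated starts with H3K4me2 within 1 kb in both lists, 71.27% held at least 10 CG in the 250 bases before the start, with a median of 15. Among 618 starts marked after 4-OHT only, 4.69% (3.17 to 6.67) did, with a median of 4. Of 18 starts marked after MM-401 only, 16.67% (3.58 to 41.4) held 10 or more, also with a median of 4. Among 5838 starts marked in neither list the share was 1.34%, with a median of 2, and over all 21263 starts it was 50.09%. The classes also differed in level. By gene, the median after 4-OHT was 26.2 tags per M for genes marked in both lists and 1.67 for 4-OHT-only genes. CG was not compared between starts of equal level. It was counted on the strand of the gene, and reads the same on both strands. Oas1a and Clrn1, with 3 and 4 CG, are near the median of their class, whereas Jarid2 and Coil, with 23 and 16, are among the 3 of 18 MM-401-only starts with 10 or more.

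Over the 15455 genes marked in both lists the median log2 tag ratio was 0.15, and 74.69% of genes had more tags per M after MM-401. At least 2-fold more tags were found after MM-401 at 12 genes (0.0776%) and after 4-OHT at 76 genes (0.492%). The highest ratios were at genes of low level. Pth1r, the parathyroid hormone receptor, had 2.98 tags per M after MM-401 and 0.885 after 4-OHT (log2 ratio 1.75), Chrna4, a nicotinic receptor subunit, 4.14 and 1.63 (1.35), and Slc26a9, an anion transporter, 11.1 and 4.38 (1.33). The lowest ratios were at Cox8b, a cytochrome oxidase subunit of muscle and brown fat, with 1.46 and 7.64 (-2.38), Art3 with 1.82 and 6.81 (-1.91), Aox3, an aldehyde oxidase, with 2.73 and 9.80 (-1.85), Cldn18, a tight junction claudin, with 2.57 and 8.83 (-1.78), and Ank3, an ankyrin, with 3.64 and 11.9 (-1.71).

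Of 353 genes on 25 lists of pathways and cell types found in the annotation, 315 were marked in both lists, 10 after 4-OHT only, 1 after MM-401 only and 27 in neither. None of the 315 differed by 2-fold in tags, as may be read against the 0.0776% and 0.492% over all genes. The lists did differ in where they stood against the median of all genes, a position that does not depend on the scale used. Neighbouring genes can share a region, so members of a list are not independent of each other.

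The Hox and neuroectoderm lists had the highest medians. All 39 Hox genes, the transcription factors of body axis patterning, had more H3K4me2 tags per M after MM-401, with a median log2 ratio of 0.41 against 0.15 over all genes, and 38 of 39 were above that median. The 39 genes draw on 52 regions. Hoxc11 had 33.8 tags per M after MM-401 and 21.2 after 4-OHT (log2 ratio 0.68), Hoxd9 38.8 and 25.5 (0.61), Hoxa7 31.7 and 21.2 (0.58), and Hoxb9, the lowest, 46.7 and 42.5 (0.14). Widths were nearly equal over these genes, with a median log2 ratio of 0.02, and density followed the tags at 0.40. All 16 neuroectoderm genes were also above the median of all genes, with a list median of 0.40. Nes, the intermediate filament of neural progenitors, read 63.7 and 40.3 (0.66), Neurog1, a proneural factor, 22.5 and 14.5 (0.63), Sox1 81.0 and 58.9 (0.46) and Olig2 134.8 and 118.4 (0.19).

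Wnt pathway genes had a median of 0.31, with 14 of 16 above the median of all genes. Lef1, a transcription factor of the pathway, read 57.3 and 39.8 tags per M (0.53), the receptor gene Fzd7 115.7 and 86.1 (0.43), and Ctnnb1, the gene of beta-catenin, 90.3 and 101.2 (-0.17). The primitive streak and mesoderm list stood at 0.29, with 12 of 15 above the median of all genes. Foxf1, a forkhead factor of mesoderm, had 64.1 and 40.6 (0.66), T, the Brachyury gene, 28.8 and 23.03 (0.32), and Tbx6, which is also a mesoderm factor, 14.8 and 21.3 (-0.52). The 7 genes of cyclin-dependent kinase inhibitors had a median of 0.30, Cdkn1a reading 100.5 and 75.2 (0.42). Trophectoderm genes stood at 0.28, with Tfap2c at 120.6 and 85.5 (0.50) and Gata3 at 20.6 and 32.1 (-0.65). Primitive endoderm genes were at 0.13, near all genes.

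Pluripotency genes were marked strongly and almost equally. The 14 core genes had a median of 114.9 tags per M after MM-401 and 111.3 after 4-OHT, and a median log2 ratio of 0.03, and 2 of 14 were above the median of all genes. Pou5f1, the gene of OCT4, had 146.3 tags per M after MM-401 and 147.4 after 4-OHT (-0.01), Nanog 121.4 and 112.3 (0.11) and Sox2 208.9 and 190.9 (0.13). Dppa2 differed most, with 55.5 and 83.9 (-0.60) over 12843 and 18459 bp, while its density was close (-0.07). All genes with 64 to 128 tags per M after 4-OHT, the class into which the median of the core genes falls, had a median log2 ratio of 0.03, and those with 16 to 32, the class of the Hox median of 31.8, had 0.19.

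The naive pluripotency genes had a median of 0.12. Klf4 read 91.2 and 71.5 tags per M (0.35), Klf5 114.0 and 153.2 (-0.43), Dppa3 42.8 and 30.03 (0.51) and Tet2, a partner of TET1 in cytosine oxidation, 91.2 and 117.7 (-0.37). Esrrb, a nuclear receptor of the naive state, was marked at its annotated ends after 4-OHT only, with 4.32 tags per M, yet both lists had a wide domain inside its locus, with 328.4 tags per M over 37.5 kb after MM-401 and 275.5 over 37.2 kb after 4-OHT. The 4-OHT-only mark of Esrrb rests on 2 weak peaks at the ends of the gene. In the formative and primed list, with a median of 0.19, Fgf5 read 29.8 and 20.9 (0.51), Otx2 131.5 and 106.5 (0.30) and Etv4 97.7 and 134.6 (-0.46).

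The lists under the median of all genes included the H3K4 enzymes. Among lists with more than 1 gene marked in both, the 6 H3K4 demethylase genes had the lowest median, -0.24, with 1 of 6 above the median of all genes. Kdm5b, of the family that removes di- and trimethylation, had 130.0 and 166.6 tags per M (-0.36), Kdm1a, the LSD1 gene, 73.5 and 94.3 (-0.36), Kdm5d 7.22 and 11.2 (-0.63) and Kdm1b 36.0 and 30.9 (0.22). The median width ratio of these genes was -0.40 and their density ratio 0.16. Genes of H3K4 methyltransferases and their subunits had a median of 0.08, with 4 of 16 above the median of all genes. Among the enzymes Kmt2b had 57.0 and 75.5 (-0.40) over 7908 and 15894 bp, Kmt2c 48.4 and 45.3 (0.10), Kmt2d 83.8 and 79.7 (0.07) and Setd1b 233.3 and 192.0 (0.28). Among the shared subunits Wdr5 had 53.1 and 54.3 (-0.03), Ash2l 92.3 and 87.6 (0.08) and Rbbp5 84.5 and 97.4 (-0.21). Dpy30, the last of the core subunits, had 21.1 tags per M after 4-OHT over 8191 bp, and the MM-401 peak in that region, with 7.93, ended more than 1 kb from the ends of the gene.

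Germline and meiosis genes were marked at low levels, with medians of 5.55 and 5.82 tags per M. Of 15, 10 had fewer tags per M after MM-401 and 5 more, with a median log2 ratio of -0.17, and 2 were above the median of all genes. Sycp1, a synaptonemal complex gene, had 8.73 and 13.9 (-0.67), Sycp3 11.9 and 17.0 (-0.52), Stra8, a switch of meiosis, 20.7 and 29.99 (-0.54) and Spo11, which cuts DNA in meiosis, 7.17 and 4.69 (0.61). All genes with 4 to 16 tags per M after 4-OHT had a median of 0.19. Polycomb genes other than Jarid2 had a median of 0.08, with Rnf2 at 52.0 and 84.0 (-0.69), Mtf2 at 168.8 and 207.7 (-0.30), Cbx8 at 66.1 and 48.3 (0.45) and Rybp at 240.2 and 269.8 (-0.17). The 7 fibroblast genes marked in both lists had a median of -0.04, and housekeeping genes 0.11.

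**Figure D5:**
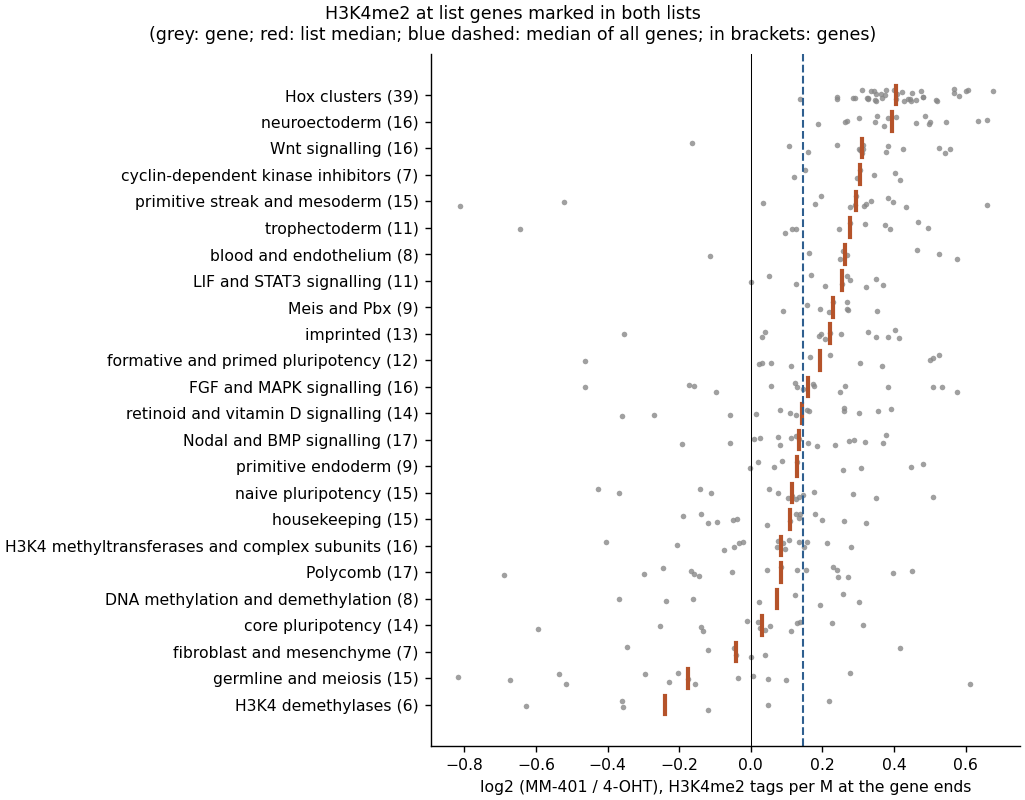
Log2 ratio of MM-401 over 4-OHT in H3K4me2 tags per M at the gene ends, for the genes of each list marked in both lists (lists with more than 1 such gene). Grey points are genes, red bars list medians, and the dashed blue line the median of all 15455 genes (0.15); Hox and neuroectoderm lists have the highest medians (0.41 and 0.40) and, of the lists drawn, H3K4 demethylases the lowest (-0.24).

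Of the 10 list genes marked after 4-OHT only, most had few tags. As for Esrrb, the mark was read at the outermost annotated ends, and a start inside the gene did not count. Hnf4a, Lmo2 and Itga2b had 0.967, 0.679 and 0.885 tags per M, and Meox1, Piwil2, Dnmt1 and Ywhaz 1.77, 1.07, 1.69 and 1.36. Pecam1, an endothelial adhesion gene, had 3.05. Those 7 and Esrrb had no peak at these ends in either list once the 4-OHT list was cut to equal length. Pecam1 and Dpy30 were still marked after 4-OHT only. Cyp26b1, a retinoic acid hydroxylase, became marked after MM-401 only.

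By chromosome, the median log2 tag ratio of shared regions ran from -0.01 to 0.08 over the 19 autosomes and was 0.14 on X. On X the regions at gene ends stood at 0.15, inside the autosomal range of 0.14 to 0.19, and those away from gene ends at 0.13, above the autosomal range of -0.10 to 0.02. The Y chromosome held 9 shared regions, with a median of -0.17.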

How the data were processed

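Peak lists of H3K4me2 after MM-401 and after 4-OHT were compared, 1 library each, with the H3K4me1 and H3K4me3 lists of the same treatments and the Mll1 list of untreated cells as further readouts. Per the file headers, the authors called peaks with MACS 1.4.2 at a p cutoff of 1e-05, each library alone against 1 input, with the band width set to 300 bp, the mappable genome to 2.7e+09 bp and the local windows to 1000 and 10000 bp. Per the submitters' processing notes, Bowtie2, SAMtools 1.5, MACS2 and mm10 were used, so the notes and headers differ on the caller. The deposited counts are tags per peak after removal of duplicates. The deposited score is -10 times log10 of the p of a peak and is capped near 3100, and was used only within a list. Another deposited value is the peak width in bp.

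Tags were divided by filtered tags in M (1000000). Peaks of both lists that overlapped by 1 bp were joined into regions, and log2 ratios of MM-401 over 4-OHT were taken of summed tags, summed widths and tags per kb. Genes were the 21887 protein-coding genes of RefSeq GRCm38.p6 (mm10); a gene was marked when a peak lay within 1 kb of either end, and its value sums the joined regions there, so a neighbouring peak can move it. The ends are the outermost ones of the annotated gene, so a start that lies inside it did not make a gene marked. Of these genes 17492 had a start in the promoter table. Intervals are Clopper-Pearson for shares and Poisson for tags. Genes outside the lists were named by rule: the 10 of highest score marked in 1 list only, with no overlapping peak in the other, the 10 highest and 10 lowest ratios with at least 100 tags, and 5 regions per rule away from gene ends; those described are taken from these. The comparison, the gene lists and the rules were chosen with earlier results of these data known. Alternatives were an overlap of at least 50% of the shorter peak, a score of at least 100, lists of equal number, joining within 1 kb, another scaling and a 2 kb window. Overlap and ratio code was tested on simulated data. Python 3.11.15, pandas 2.3.3, NumPy 2.4.6, SciPy 1.17.1 and matplotlib 3.10.9 were used. The untreated H3K4me lists were not used here.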

Additional observations from a re-analysis of the deposited data

How the results depend on the processing

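The MM-401 library holds 40.8% of the tags of the 4-OHT library, and the part of depth in the counts of 4-OHT-specific peaks and genes was not tested. No paired analysis was possible because each group has 1 library, which also leaves no replicate to leave out. Of the values recomputed under these alternatives, 17 stayed within the counting interval (or, for genes, 1.5 times the count), 23 moved and 2 changed sign. With a score of at least 100 in both lists, 99.47% of MM-401 and 55.15% of 4-OHT peaks were shared, the median log2 tag ratio was 0.16 at gene ends and 0.00425 away (sign changed), and the width ratio away was -0.0473. With lists of equal number the shares were 88.75% and 85.26%, the tag ratio away -0.10, the width ratio away -0.0792, and 172 genes were marked after MM-401 only (38 with the whole lists) and 230 after 4-OHT only (702). With peaks within 1 kb joined, the 4-OHT share was 61.35%, the tag ratios 0.14 and -0.0497 and the width ratios -0.0838 and -0.0725. Scaled by tags in peaks, the tag ratios were 0.26 and 0.0662 (sign changed away). Gene ends within 2 kb gave 0.15 for tags at gene ends. A minimum of 2 tags per M in both lists, chosen after seeing the data, gave shares of 94.2% and 77.96%, tag and width ratios away of -0.0748 and -0.0747, and 83 and 319 genes marked in 1 list only.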
